A study of Mus musculus with 36 samples.

Results

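The histone gene cluster of mouse chromosome 13 was taken as every protein-coding gene whose symbol names a histone inside chr13:21700000-22050000 (stretch 1, 350 kb) and chr13:23520000-23770000 (stretch 2, 250 kb) of mm10. By this rule 52 of 21887 protein-coding genes were members, 23 in stretch 1 and 29 in stretch 2. They comprised 6 genes for the linker histone H1, 12 for H2A, 14 for H2B, 9 for H3 and 11 for H4, and 47 of the 52 were no longer than 1000 bp. The gene listed as H4bc24 carries the older name Hist1h2br and was counted with H2B. The stretches also held 5 other protein-coding genes and 36 tRNA genes, 33 of them in stretch 1.

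Chromatin from mouse embryonic stem cells was immunoprecipitated with an antibody to CTCF or to MBD3 and sequenced, with input chromatin alongside, on days 0, 2, 4 and 6. The 36 samples form 12 groups of 3, and every group was grown in KnockOut serum replacement medium with LIF on gelatin and irradiated mouse fibroblast feeders. The labels name no treatment, genotype or differentiation step between the days, and the deposited names carry only the mark WT. Peaks had been called once per antibody and day on replicates 1 to 3 together, so each of the 8 lists is 1 pooled measurement with no spread between replicates, and no difference between days carries a test. Peak lists hold no expression values, so the labelled cell type could not be checked against markers, and feeder chromatin cannot be told apart from stem cell chromatin.

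Replication-dependent histone genes are made for S phase, when new DNA must be packed into nucleosomes. Most are short and lack introns, and their messages end in a stem-loop bound by SLBP in place of a poly(A) tail. The H2A and H2B genes often stand as divergent pairs with their promoters between them, and the clusters gather in the nucleus at the histone locus body with the activator NPAT. CTCF is a zinc finger protein that binds insulators and stops cohesin at loop borders, and tRNA genes have also been described as insulators. MBD3 belongs to the nucleosome remodelling and deacetylase complex NuRD, which in embryonic stem cells sits at many active and bivalent promoters.

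The promoter sequences below are the 250 bases before the start of 6 members, from RefSeq on GRCm38.p6, the assembly behind mm10, each written 5′ to 3′ in the direction of the gene. H2ac4 (chr13:23750838-23751087, plus strand) had the highest CTCF fold among the H2A genes, and H2ac7 (chr13:23574131-23574380, plus strand) held a peak in all 8 lists. H2ac12 (chr13:22035644-22035893, minus strand) held CTCF on all 4 days. H2bc23 (chr13:21810200-21810449, minus strand) is shown because it starts beside H2ac23, where MBD3 was highest, and shares its promoter letters with H4bc24. H4c6 (chr13:23551669-23551918, minus strand) was the only member with summits in the window before its start, and H1f4 (chr13:23622559-23622808, minus strand) had no peak within 1 kb. Capitals mark matches on either strand to TATAAA, to CCAAT, to the octamer ATTTGCAT and to AAACACA, the element of H1 promoters. No marked matches overlapped.
H2ac4: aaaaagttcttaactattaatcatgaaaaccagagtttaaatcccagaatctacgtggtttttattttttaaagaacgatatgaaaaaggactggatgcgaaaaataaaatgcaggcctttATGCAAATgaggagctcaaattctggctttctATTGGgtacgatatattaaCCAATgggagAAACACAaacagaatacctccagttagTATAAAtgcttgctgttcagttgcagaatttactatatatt
H2ac7: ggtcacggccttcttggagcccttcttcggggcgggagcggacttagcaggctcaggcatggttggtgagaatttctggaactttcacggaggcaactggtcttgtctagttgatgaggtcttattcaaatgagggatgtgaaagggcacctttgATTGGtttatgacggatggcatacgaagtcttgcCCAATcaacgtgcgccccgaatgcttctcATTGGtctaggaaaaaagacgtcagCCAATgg
H2ac12: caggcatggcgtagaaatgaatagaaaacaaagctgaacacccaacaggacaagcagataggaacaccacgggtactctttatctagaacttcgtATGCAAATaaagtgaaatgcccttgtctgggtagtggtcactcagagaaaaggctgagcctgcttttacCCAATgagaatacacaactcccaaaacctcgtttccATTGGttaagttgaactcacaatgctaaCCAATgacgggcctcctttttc
H2bc23: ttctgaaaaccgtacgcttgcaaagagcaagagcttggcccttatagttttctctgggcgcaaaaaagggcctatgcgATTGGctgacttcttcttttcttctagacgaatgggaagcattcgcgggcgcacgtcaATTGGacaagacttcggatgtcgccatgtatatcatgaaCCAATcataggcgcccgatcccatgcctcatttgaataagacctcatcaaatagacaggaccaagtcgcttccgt
H4c6: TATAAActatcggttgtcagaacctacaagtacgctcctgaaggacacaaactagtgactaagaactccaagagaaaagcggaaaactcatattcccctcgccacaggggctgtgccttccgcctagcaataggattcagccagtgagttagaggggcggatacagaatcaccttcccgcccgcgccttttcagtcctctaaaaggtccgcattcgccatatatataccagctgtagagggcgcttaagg
H1f4: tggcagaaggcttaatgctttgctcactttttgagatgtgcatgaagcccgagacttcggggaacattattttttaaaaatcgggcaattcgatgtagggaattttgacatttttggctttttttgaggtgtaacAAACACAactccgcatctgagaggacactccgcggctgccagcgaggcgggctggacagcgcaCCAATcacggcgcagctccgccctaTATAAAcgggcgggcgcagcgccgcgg

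In the full window of 250 bases before to 50 after the start, 49 of the 52 members had an entry, and H3c7, H2bc4 and H3c1 had none. CCAAT, on either strand, was in 41 of the 49 windows (83.7%) against 37.4% of 32851 promoters in the table. Every H1, H2A, H2B and H3 window held it, and 3 of 11 H4 windows did. TATAAA was in 59.2% of the member windows against 13.6% of all. The octamer, read by POU proteins such as the product of Pou2f1, was in 4 of 12 H2A and 4 of 13 H2B windows and in no H1, H3 or H4 window, against 1.74% of all promoters. AAACACA was in 5 of 6 H1 windows against 7.18% of all. Both strands were searched and the windows of divergent pairs can overlap, so the same copy of a motif can count for both genes. The octamer printed for H2ac12 also lies in the window of H2bc12. A CTCF core motif, whose letters are not given here, was in 0 of 49 member windows and in 4.33% of all. At most 1 mismatch was allowed and weaker matches were not counted, so a window may still hold a partial motif.

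Peaks of both antibodies were packed more densely in the stretches than around them. CTCF had 42, 23, 29 and 31 peaks in both stretches together on days 0, 2, 4 and 6, or 7.0, 3.83, 4.83 and 5.17 per 100 kb. Over the genome CTCF had 1.75, 1.04, 1.36 and 1.41 per 100 kb on those days, and in the 1470 kb between the stretches it had 0.748, 0.408, 0.612 and 0.544. MBD3 had 15, 12, 16 and 12 peaks, or 2.5, 2.0, 2.67 and 2.0 per 100 kb, against 0.387, 0.0737, 0.333 and 0.402 over the genome. The exact Poisson 95% intervals of these densities, which cover counting error only, ran from 5.04 to 9.46 for CTCF on day 0 and from 1.03 to 3.49 for MBD3 on day 2. Whole lists held 47414, 28137, 36787 and 38109 CTCF peaks and 10464, 1991, 9006 and 10875 MBD3 peaks. The MBD3 list of day 2 was the shortest, and the stretches held 0.603% of it, against 0.143%, 0.178% and 0.11% of the lists of days 0, 4 and 6.

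Many members had a peak within 1 kb of either gene end. CTCF peaks reached 37 of the 52 members on day 0, where 34.3% of all protein-coding genes had one, 20 on day 2 (15.6% of all genes), 30 on day 4 (20.3%) and 31 on day 6 (21.0%). As shares of the members these are 71.2%, 38.5%, 57.7% and 59.6%. MBD3 peaks reached 21 members on day 0 (10.0% of all genes), 24 on day 2 (2.13%), 21 on day 4 (9.86%) and 13 on day 6 (7.96%), or 40.4%, 46.2%, 40.4% and 25.0% of the members. Because the genes stand so close together, 1 peak often served several of them. When each peak was given only to its nearest histone gene, the counts were 25, 13, 18 and 19 for CTCF and 10, 11, 11 and 6 for MBD3. The shares over all genes above let 1 peak serve several genes, so they are no comparison for these counts. Over the 8 lists 37 members were reached at least once. The 15 without a peak within 1 kb were H1f1, H1f2, H1f3, H1f4 and H1f5, 1 long H2B gene and 1 short one (H2bc6 and H2bc9), H3c1, H3c7, H3c8 and H3c11, and H4c2, H4c4, H4c8 and H4c12.

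The peaks that lay on the genes themselves were almost confined to H2A, the histone that pairs with H2B in the dimers flanking the H3 and H4 tetramer of the nucleosome. A CTCF summit lay inside all 12 H2A genes on day 0 and inside 6, 9 and 10 of them on days 2, 4 and 6. An MBD3 summit lay inside 8, 10, 8 and 5 of the 12. In contrast, 0 of the 9 H2B genes of up to 1000 bp and 0 of the 6 H1 genes had a summit inside in any of the 8 lists. H3 had H3c10 and H3c2, both with CTCF on day 0 alone, and H4 had H4c9 with CTCF on day 0 and H4c11 with MBD3 on day 4. Among the 47 short members the totals were 15, 6, 9 and 10 for CTCF and 8, 10, 9 and 5 for MBD3. Over all 1577 protein-coding genes of up to 1000 bp the shares with a CTCF summit inside were 2.92%, 1.14%, 1.59% and 1.97% on days 0, 2, 4 and 6. For MBD3 they were 1.01%, 1.14%, 1.2% and 0.888%. Of the 18 short genes with an MBD3 summit inside on day 2, 10 were H2A members (55.6%), and of the 16 on day 0, 8 were.

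**Figure D1:**
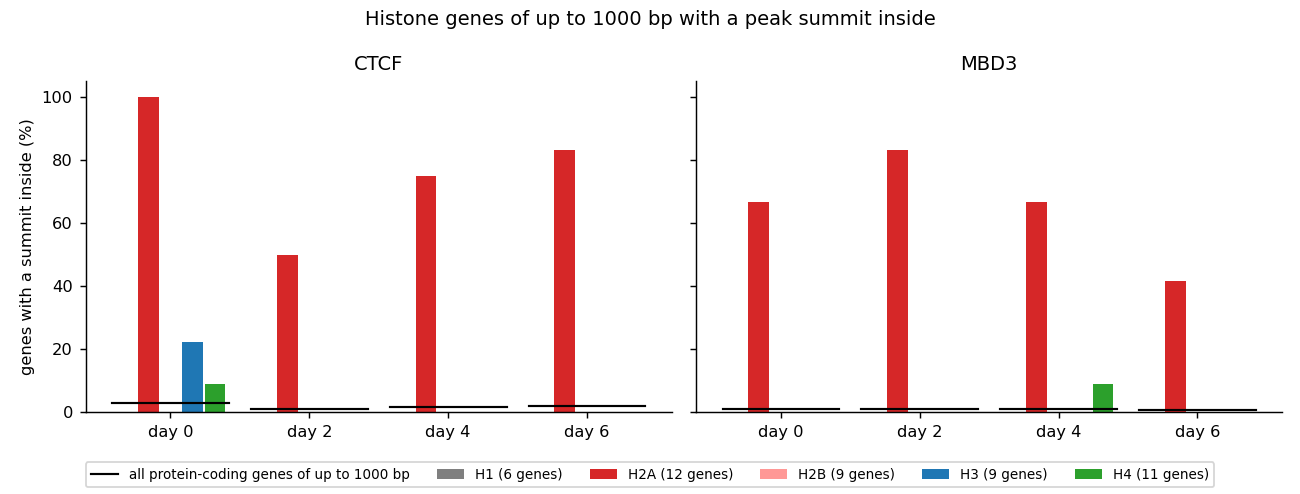
Share of the histone genes of up to 1000 bp with a peak summit inside the gene (vertical axis, percent) on each day, for CTCF (left) and MBD3 (right), with a bar for each histone class and a black line at the share over all protein-coding genes of up to 1000 bp. H2A stands between 41.7% and 100% in every list, while H1 and H2B have no bar on any day.

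H2ac7 (chr13:23574381-23574915, plus strand) and H2ac24 (chr13:21833024-21833475, minus strand) were the H2A genes with a summit inside in all 8 lists. In H2ac7 the CTCF fold, which is the fragments over the summit relative to the expected background, was 3.85, 2.33, 2.86 and 2.92 on days 0, 2, 4 and 6. Its MBD3 fold was 3.14, 2.80, 2.68 and 2.47 on those days. Both proteins were therefore called there on every day, at folds below the list medians of 6.67, 5.46, 8.56 and 8.91 for CTCF and 4.07, 4.29, 3.85 and 4.58 for MBD3. H2ac24 had CTCF folds of 3.84, 2.54, 4.81 and 3.38 and MBD3 folds of 3.65, 7.09, 7.69 and 4.44. Here MBD3 was highest on days 2 and 4.

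H2ac23 (chr13:21810367-21810918, plus strand) also had its highest MBD3 folds on days 2 and 4, with 3.54, 7.81, 6.43 and 4.403 on the 4 days. CTCF in H2ac23 was 3.44 on day 0, absent from the day 2 list, 3.32 on day 4 and 3.55 on day 6. The day 2 folds in H2ac23 and H2ac24 and the day 4 folds in both were the 4 highest MBD3 folds of the stretches. H2ac23 and H2ac24 sit in gene sets that mirror each other, with H2bc23, H2ac23 and H4c17 on one side and H4c18, H2ac24 and H4bc24 on the other. The promoter windows of H2bc23 and H4bc24 were 100% identical and those of H4c17 and H4c18 99.0%, while those of H2ac23 and H2ac24 themselves were 48.6% identical. Identity between the gene bodies was not computed. How reads that fit several places were treated is not given in the sources used here, so for H2A genes with like coding sequence the copy a fragment came from is uncertain.

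H2ac4 (chr13:23751088-23751592, plus strand) had the highest CTCF fold inside an H2A gene, 7.60 on day 0, and then no CTCF peak on day 2, 3.34 on day 4 and 5.08 on day 6. Its MBD3 fold was 5.79, 3.46, 4.34 and 3.40. MBD3 was thus called in H2ac4 on all 4 days, including day 2, when CTCF was not. H2ac10 (chr13:23533875-23534378) followed the same pattern of lists at lower folds, with CTCF at 2.26, 3.06 and 2.23 on days 0, 4 and 6 and MBD3 at 2.67, 3.29, 3.70 and 2.36 on the 4 days. H2ac8 (chr13:23570663-23571220) also lacked CTCF on day 2 alone, with 5.70, 4.28 and 3.96 on the other days, and had MBD3 at 3.64, 2.50 and 4.09 on days 0, 2 and 4. With H2ac23 and H2ac6, these make 5 H2A genes with MBD3 but no CTCF on day 2.

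H2ac12 (chr13:22035122-22035643, minus strand) and H2ac13 (chr13:21716412-21716859, plus strand) had CTCF on all 4 days and MBD3 on days 0, 2 and 4. In H2ac12 CTCF was 4.69, 2.01, 2.99 and 2.81 and MBD3 was 2.71, 3.14 and 2.45. In H2ac13 CTCF was 3.87, 2.14, 3.00 and 3.45 and MBD3 was 3.87, 3.42 and 2.74. Both genes were absent from the MBD3 list of day 6. H2ac22 (chr13:21786774-21787248) had CTCF on all 4 days, at 7.27, 2.298, 3.99 and 3.67, and no MBD3 peak in any list. Among the 5 H2A genes with CTCF on every day, the fold was lowest on day 2 in 5 of 5, and day 2 also had the lowest median fold of the whole CTCF lists.

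The remaining H2A genes appeared in fewer lists. H2ac11 had CTCF at 4.20, 2.89 and 2.94 on days 0, 2 and 6 and MBD3 at 2.78 on day 2. H2ac6 had CTCF at 4.08 on day 0 and MBD3 at 3.17 on day 2, never both on a day. H2ac15 had CTCF at 4.24 on day 0 and nothing else. Day 0 was the only day on which the CTCF list covered these 3 genes and the other 9 together.

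Many neighbours within 1 kb were counted through these H2A peaks. H2bc13, H3c10, H2bc15, H2bc22, H2bc23, H4c17, H4c18, H4bc24, H2bc12, H2bc11, H2bc8, H2bc7, H3c4, H2bc4 and H3c2 were all reached by the peak of the H2A gene beside them. Of the 14 H2B genes, 12 had a CTCF peak within 1 kb on some day and 9 an MBD3 peak, yet no short H2B gene held a summit. H2bc13 and H2bc11 were also within 1 kb of sites outside the genes, at 797 and 676 bp. Only through these sites was H2bc13 counted for MBD3 on day 6 and H2bc11 for CTCF on day 4. H2bc14 was reached by a peak on the pseudogene H2ac14, and H2bc3 and H3c3 by a peak on the pseudogene H2ac5-ps.

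Those pseudogenes, H2A copies that are not members, carried peaks like those of the intact genes. At H2ac14 the CTCF fold was 4.34, 2.303, 3.61 and 4.66 on the 4 days, and MBD3 was 4.28, 3.86 and 3.44 on days 0, 2 and 4. At H2ac5-ps the CTCF fold was 5.75, 3.16 and 2.99 on days 0, 4 and 6, and MBD3 had no peak. On day 2, 10 of the 12 MBD3 peaks of the stretches lay in H2A genes, 1 lay on H2ac14 and 1 lay near Hfe.

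Within the H2A genes, which are 448 to 558 bp long, the summits fell in a narrow zone around and past the middle. The 68 summits lay 201 to 403 bp from the gene start, with a median of 304 bp, or 60.2% of the gene length, and reached from 39.9% to 73.0% of it. The summits before the middle were the 4 CTCF summits of H2ac22 and the CTCF summit of H2ac10 on day 6. The CTCF median was 299 bp over 37 summits and the MBD3 median 307 bp over 31. The summits of 1 gene spread over 0 bp (H2ac15, with a single summit) to 102 bp (H2ac10), and over 32 bp for the 8 summits of H2ac7. On 26 occasions CTCF and MBD3 both had a summit in the same H2A gene on the same day. The MBD3 summit was further from the start in 22 of these and nearer in 4. The signed difference, MBD3 minus CTCF, had a median of 19.5 bp over all 26 and ran from -20 to 79 bp. The 26 pairs share 8 lists and 9 genes, so this is a description. The table of genes gives only outer ends, so exons and untranslated parts were not told apart.

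**Figure D2:**
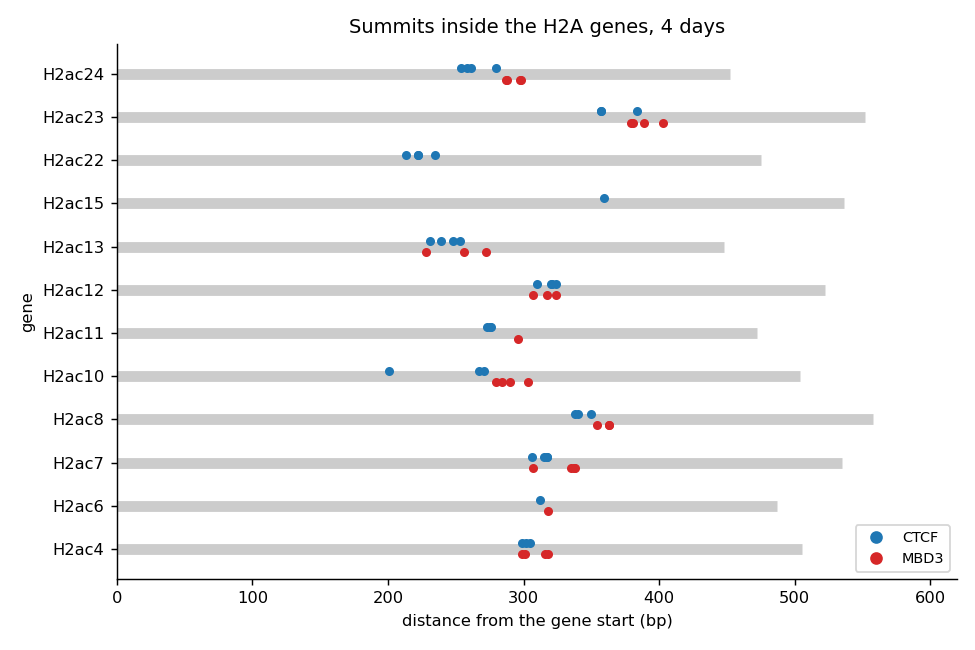
Position of every summit inside the 12 H2A genes (horizontal axis, bp from the gene start; grey bars, gene length), with CTCF in blue and MBD3 in red over the 4 days. All 68 summits lie between 201 and 403 bp, and none lies near either end of a gene.

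The H2A peaks differed from the other peaks of the cluster in the counts behind their folds. Because fold and p-value follow fixed formulas, they give back how many fragments covered a summit and how many the background model expected. On day 0 the 12 CTCF peaks in H2A genes had a median of 170 fragments over an expected 36.0, a median fold of 4.14, while the 25 CTCF peaks outside short histone genes and the pseudogenes, among them the peak in the long span of H2bc6, had 74 fragments over 8.21, a median fold of 8.25. On day 2 the median CTCF fragments were 83 in H2A genes and 48 outside, on day 4 they were 60 and 64, and on day 6 they were 78.5 and 88. The H2A peaks had the higher expected background on each of these days, and more fragments on days 0 and 2 only. The median CTCF fold of H2A peaks on days 2, 4 and 6 was 2.31, 3.32 and 3.41, and outside it was 6.23, 11.9 and 10.9. For MBD3 the H2A medians were 3.59, 3.23, 3.89 and 3.40, and the outside medians were 4.73, 5.24 (1 peak), 3.57 and 4.91. By fold, the median CTCF peak in H2A genes stood above 25.4%, 0.984%, 3.67% and 4.32% of its list on the 4 days. Outside, these shares were 62.3%, 62.8%, 73.7% and 63.6%. For MBD3 they were 34.9%, 27.0%, 51.0% and 14.7% in H2A genes. They were 67.8%, 65.4% (1 peak), 40.2% and 58.1% outside.

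Relative to the lowest level of its own list, the expected background was 5.39 to 26.1 times higher at the 37 CTCF peaks in H2A genes and 4.88 to 27.5 times higher at the 31 MBD3 peaks there. At the 78 CTCF and 20 MBD3 peaks outside, counted in the same way, these ratios ran from 1.0 to 10.4 and from 1.73 to 8.56. A ratio over 10 was found for 20 of the 37 and 17 of the 31 H2A peaks, and for 1 of the 78 and 0 of the 20 outside. Over whole lists such peaks were 2.14% to 8.32% for CTCF and 9.37% to 22.5% for MBD3. Without them, H2A genes with a CTCF summit inside numbered 6, 1, 6 and 4 on the 4 days and those with MBD3 2, 4, 5 and 3. The share over all short genes under this filter is not given here, so these counts have no comparison. The part of the high expected background in these peaks was not tested.

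**Figure D3:**
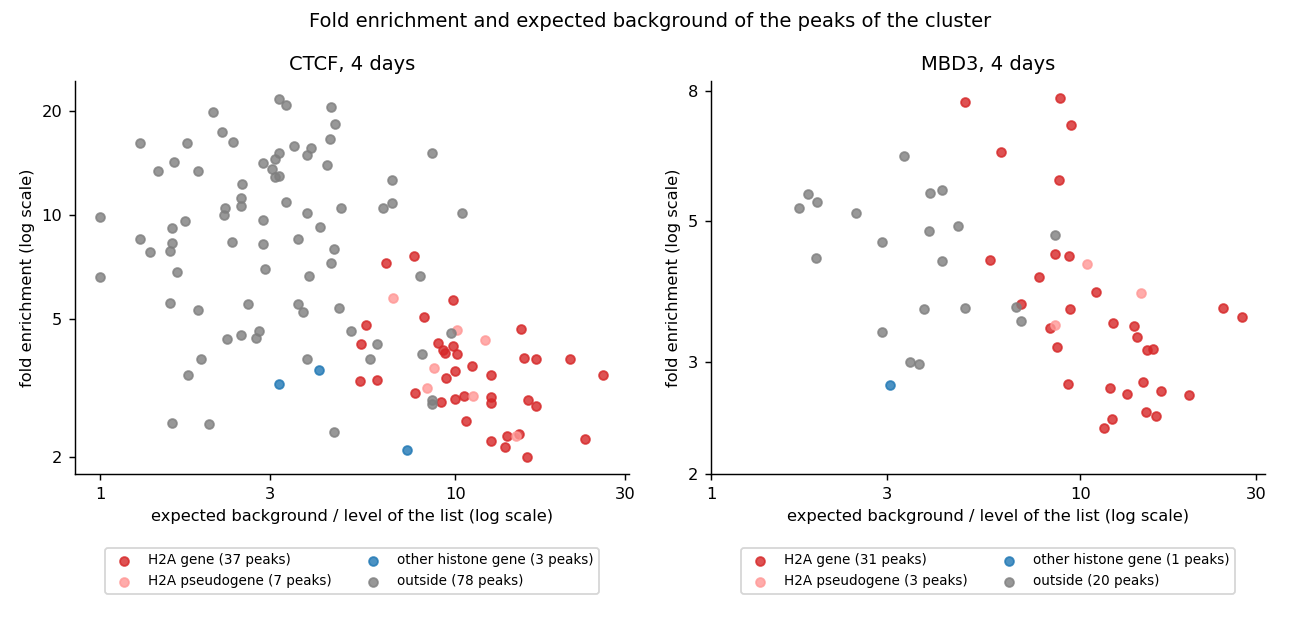
Fold enrichment (vertical axis, log scale) against the expected background divided by the level of the peak's own list (horizontal axis, log scale) for the CTCF peaks (left) and MBD3 peaks (right) of both stretches on the 4 days. H2A peaks lie to the right, at 4.88 to 27.5 times the level, and the CTCF peaks outside, which include those in the long span of H2bc6, reach a fold of 21.6 at lower backgrounds.

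Single-day peaks lay in the other histone genes. The CTCF folds on day 0 were 3.58 in H3c10, 3.26 in H3c2 and 2.09 in H4c9, and the MBD3 fold in H4c11 on day 4 was 2.76. H4c6 had CTCF at its very start, with summits 3, 1 and 8 bp before it on days 0, 4 and 6 and folds of 3.85, 4.26 and 3.98, and no peak on day 2. Those summits lie at the right-hand end of the H4c6 sequence printed above. H4c1 had 1 CTCF peak, 553 bp from the gene, at 4.41 on day 0.

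The strongest CTCF sites of the cluster lay outside the short histone genes and on all 4 days. Merging overlapping peaks of the 8 lists gave 45 sites, with 12 in H2A genes, 2 on the H2A pseudogenes, 4 in other histone genes and 27 elsewhere. Of the 27 elsewhere, 15 had CTCF on every day, and 14 of the 15 passed a fold of 10 on some day. None of the 5 H2A sites with CTCF on every day did. Of these 15 sites, 5 lay within 1 kb of a histone gene, 1 lay inside the 37455 bp span annotated for H2bc6, and 6 lay over 5 kb from any histone gene. The fold was lowest on day 2 in 12 of the 15, as in the H2A genes, and highest on day 6 in 7.

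**Figure D4:**
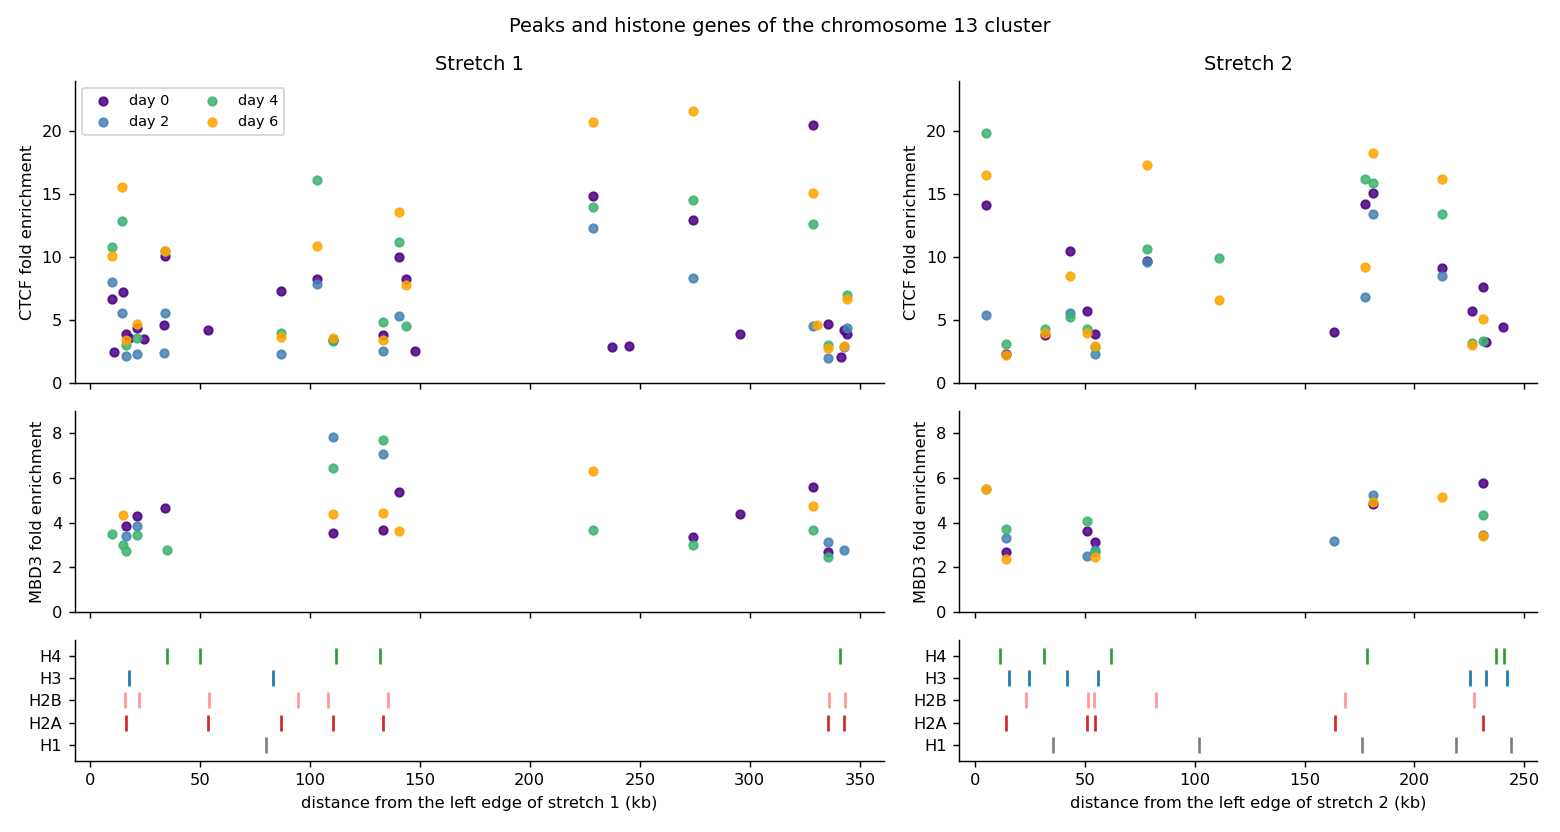
CTCF (top) and MBD3 (middle) fold enrichment at each summit, coloured by day, along stretch 1 (left) and stretch 2 (right), with the midpoints of the histone genes by class (bottom); the horizontal axis is the distance from the left edge of the stretch in kb. CTCF folds over 10 lie outside the short histone genes, and most MBD3 points stand above H2A marks.

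In stretch 1 the site with the highest CTCF fold on any day was chr13:21974056-21974633, 60797 bp from the nearest histone gene and 707 bp from the tRNA gene n-TMcat8. Its CTCF fold was 12.9, 8.37, 14.5 and 21.6 on the 4 days, and MBD3 had 3.34 on day 0 and 3.00 on day 4. The site chr13:21928547-21928919, 821 bp from n-TSaga6, followed with 14.9, 12.3, 14.0 and 20.7 and MBD3 at 3.65 and 6.32 on days 4 and 6. Both lie in the tRNA-rich part of stretch 1, which has no histone gene between H4bc24 and H2ac12. The site chr13:22028686-22029064, 360 bp from n-TIaat7 and 6259 bp from H2ac12, had 20.5, 4.56, 12.6 and 15.1, the widest range of any constant site here. MBD3 was there on days 0, 4 and 6, at 5.59, 3.66 and 4.75. The fourth constant site within 1 kb of a tRNA gene was chr13:21709936-21710381, 470 bp from n-TGgcc7, with CTCF at 6.68, 7.98, 10.8 and 10.1 and MBD3 at 3.49 on day 4.

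Closer to the histone genes of stretch 1, the site 797 bp from H2bc13 had CTCF at 7.26, 5.54, 12.9 and 15.6 and MBD3 at 2.98 and 4.33 on days 4 and 6. The site 766 bp from H4c11 had CTCF at 10.1, 5.55, 10.5 and 10.5, with MBD3 at 4.64 on day 0. A weaker site 1408 bp from H4c11 had CTCF at 4.62 on day 0 and 2.36 on day 2 only. Sites 1697 bp from H2bc22 and 3152 bp from H4bc24 had CTCF at 8.25, 7.90, 16.1 and 10.9 and at 10.0, 5.31, 11.2 and 13.6, and the latter had MBD3 at 5.35 on day 0 and 3.64 on day 6. A site 6143 bp from H4bc24 had 8.28, 4.51 and 7.81 on days 0, 4 and 6. H2bc22 and H4bc24 are annotated with spans of 14079 and 3788 bp, and these distances run from the ends of the spans, not from the gene starts. The site 676 bp from H2bc11 was the constant site that never passed 10, with 3.85, 4.39, 6.98 and 6.65.

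In stretch 2 a site stood 6232 bp from H4c8, near its left end, with CTCF at 14.1, 5.38, 19.8 and 16.5 and MBD3 at 5.52 on days 4 and 6. H3c6, an H3 gene, had a site 921 bp away with 10.5, 5.59, 5.24 and 8.51. The site inside the long span of H2bc6 had 9.66, 9.63, 10.6 and 17.4. MBD3 had no peak at the H3c6 and H2bc6 sites. The site chr13:23697383-23697839, 527 bp from H4c3, was also within 1 kb of H1f6, the testis-specific H1 gene and the only H1 gene reached, with 14.2, 6.87, 16.2 and 9.21. Near it, the site 655 bp from Hfe, an iron-regulating gene that is no histone, had CTCF at 15.1, 13.4, 15.9 and 18.3. MBD3 at the Hfe site was 4.82, 5.24 and 4.91 on days 0, 2 and 6, and this was the only MBD3 peak of day 2 away from H2A sequence. The site 6134 bp from H1f2 had CTCF at 9.17, 8.54, 13.4 and 16.2 and MBD3 at 5.14 on day 6. A site 8295 bp from H1f4 was found on days 4 and 6 only, at 9.90 and 6.61.

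Sites outside the short histone genes with CTCF on a single day numbered 8, of which 7 were on day 0, with folds of 2.50 to 4.64. The strongest were the site 469 bp from n-TTagt1 on day 6 (4.64), the site near H4c1 on day 0 (4.41) and a site 889 bp from n-TQctg1 on day 0 (3.85), where MBD3 had 4.37. Of the 8, 5 lay within 1 kb of a tRNA gene, and 1 lay inside Zfp184 (2.93). Of the 36 tRNA genes in the stretches, 8, 5, 5 and 6 had a CTCF peak within 1 kb on the 4 days, or 22.2%, 13.9%, 13.9% and 16.7%. For the 372 tRNA genes elsewhere the shares were 30.1%, 14.2%, 18.3% and 20.7%. MBD3 was within 1 kb of 3, 0, 5 and 2 of the 36, or 8.33%, 0%, 13.9% and 5.56%, against 12.6%, 0.269%, 9.68% and 9.41% of the 372 elsewhere.

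Sites were also counted by the days on which they held a peak. CTCF had 44 merged sites in the stretches, and 21 had a peak on all 4 days (47.7%, exact binomial 95% interval 32.5% to 63.3%), beside 47.3% over the genome. MBD3 had 23 merged sites with 5 on all 4 days (21.7%, 7.46% to 43.7%), beside 4.9% over the genome. All 5 of those MBD3 sites were H2A genes, namely H2ac4, H2ac7, H2ac10, H2ac23 and H2ac24. Of the 27 sites outside the short histone genes and pseudogenes, 11 had MBD3 on some day and 0 on all 4. These intervals cover counting error only.

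MBD3 peaks of the stretches mostly overlapped CTCF peaks of the same day. The overlap was 15 of 15 on day 0, 7 of 12 on day 2 (58.3%, 27.7% to 84.8%), 15 of 16 on day 4 (93.8%, 69.8% to 99.8%) and 12 of 12 on day 6. Over the whole lists the shares were 88.9%, 53.7%, 84.3% and 91.8%, inside the interval of each day. The 5 MBD3 peaks of day 2 without CTCF were in H2ac4, H2ac6, H2ac8, H2ac10 and H2ac23. Read the other way, 35.7%, 30.4%, 51.7% and 38.7% of the CTCF peaks of the stretches overlapped MBD3, against 19.5%, 3.8%, 20.6% and 26.1% of all CTCF peaks. On day 2 the interval of the share in the stretches ran from 13.2% to 52.9%. That share rests on 7 CTCF peaks, in H2ac7, H2ac11, H2ac12, H2ac13 and H2ac24, on the pseudogene H2ac14 and near Hfe. On the H2A sequences the CTCF folds of these peaks ran from 2.008 to 2.885. Their expected background was 9.1 to 15.9 times the list level. The Hfe site had a CTCF fold of 13.4 at 1.88 times the level. The part of the high background in this overlap was not tested.

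Histone genes elsewhere in the genome were compared by the same measures. By symbol, 12 were of the replication-dependent kind, 10 on chromosome 3 and H2bc1 and H2ac1 on chromosome 13, beyond stretch 2. CTCF was within 1 kb of 7, 0, 2 and 4 of these (58.3%, 0%, 16.7% and 33.3%). MBD3 was within 1 kb of 2, 0, 0 and 0 (16.7% on day 0). Over all protein-coding genes the CTCF shares were 34.3%, 15.6%, 20.3% and 21.0%. For MBD3 they were 10.0%, 2.13%, 9.86% and 7.96%. Of the 5 H2ac genes among them, only H2ac20 had a summit inside, CTCF at 2.77 on day 6. H2aw on chromosome 11, an H2A gene of 508 bp, was not among the 12 by its symbol. It had a CTCF summit inside on all 4 days, at 5.29, 2.57, 4.08 and 4.45, and no MBD3. H2aj on chromosome 6 had MBD3 inside on all 4 days, at 3.68, 6.64, 5.95 and 3.28, and no CTCF. H1f0, the replacement H1 gene, had MBD3 inside at 10.66, 11.61 and 11.01 on days 2, 4 and 6, above every MBD3 fold in the cluster. Of 10 replacement histone genes, 6, 0, 4 and 4 had CTCF within 1 kb on the 4 days and 2, 3, 4 and 1 had MBD3. A CTCF summit lay inside 7, 5, 6 and 7 of the 10 and an MBD3 summit inside 4, 5, 8 and 6. Shares over all genes of any length are not given here for summits inside. H3f3b had both inside on all 4 days, with CTCF at 9.39, 3.996, 8.24 and 9.09. Its MBD3 folds were 3.41, 3.82, 2.93 and 3.01. H2ax had CTCF inside at 1.66, 3.08 and 2.875 on days 0, 4 and 6. MBD3 there was 2.05, 3.32 and 2.77 on days 0, 2 and 4.

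Genes whose products act on histone genes or their messages were also examined, 14 in all. CTCF was within 1 kb of 8, 5, 6 and 5 of them, or 57.1%, 35.7%, 42.9% and 35.7%. Over all protein-coding genes these shares were 34.3%, 15.6%, 20.3% and 21.0%. MBD3 was within 1 kb of 2, 2, 4 and 2, or 14.3%, 14.3%, 28.6% and 14.3%, against 10.0%, 2.13%, 9.86% and 7.96% of all genes. Slbp, which encodes the stem-loop binding protein, had CTCF at 7.56, 7.14, 8.04 and 7.25. Lsm11, which encodes a U7 snRNP protein for histone message ends, had CTCF at 48.3, 16.0, 28.2 and 29.0 and MBD3 at 17.6, 5.14, 12.0 and 10.7, and was the only one with both on all 4 days. Pou2f1, whose product reads the octamer, had CTCF at 21.4, 9.52, 24.4 and 15.6 and MBD3 at 5.47 and 4.47 on days 4 and 6. Coil, which encodes the Cajal body protein coilin, had CTCF at 14.8, 5.69, 11.8 and 12.8 and MBD3 at 5.63 and 3.95 on days 0 and 4. Casp8ap2, Lsm10, Cpsf3, Npat, Zfp473 and Cpsf2 had no peak within 1 kb of an end on any day. Inside their spans Npat, which encodes the activator of the cluster, had CTCF at 5.75, 4.50, 3.12 and 4.72 and Zfp473 at 7.34, 4.66, 9.79 and 8.04. Zfp473 also had MBD3 at 2.98 on day 4, and Cpsf2 had CTCF at 5.40 on day 0 and 2.70 on day 6.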

How the data were processed

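ChIP-seq libraries of CTCF, MBD3 and input were grouped by antibody and day from the labels. Per the submitters' processing notes, the tools were Bowtie2 2.3.4, MACS2 2.1.2, SAMtools 1.9, bedtools 2.25.0 and FastQC 0.11.7 with mm10, and parameters are not given in the sources used here. The authors deposited 8 peak lists, and their names mark replicates 1 to 3 as pooled. Input was not analysed here on its own. Each deposited list gives a score, a fold (a ratio to the expected background), -log10 p and -log10 q per peak, and the values are the authors'. Folds of several days depend on each list's background and were not tested. Sequencing depth is unknown.

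Rows with the same interval were counted as 1 peak with its strongest summit. Fragments and expected background were recovered from fold and p by the caller's formulas for 98.1% to 99.9% of a list, and for 100% of summits with a -log10 p under 30, within 0.1% of the -log10 p. The level of a list is the smallest background value that 0.5% or more of its peaks have. Gene ends were read from RefSeq on GRCm38.p6. Sites merge peaks overlapping by 1 bp or more. Shares have exact Clopper-Pearson and densities exact Poisson 95% intervals. The counting code was tested on simulated data, with Python 3.11.15, numpy 2.4.6, pandas 2.3.3, scipy 1.17.1, Biopython 1.88 and matplotlib 3.10.9.

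Members, lists and rules were chosen with earlier results of these data known. Members with a peak within 1 kb are named, with values for those of highest fold and those with MBD3. Sites of 2 or more days are described, and single-day sites by range and the strongest 3. Of the other gene lists, those with a peak on all 4 days or with MBD3 are named, up to 4 a list. Npat, Zfp473, Cpsf2, H2ac20 and the genes without a peak were named after their values were seen. Alternatives kept only peaks with a -log10 q of at least 10, or the same number of peaks on each day (28137 CTCF, 1991 MBD3), or used summits within 100 bp, an overlap of 50% of the shorter peak, separate summits, windows of 5 kb and nearest-gene assignment. Dropping peaks whose background exceeded 10 times the list level, and counting summits inside genes of up to 1000 bp were added after seeing the data.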

Additional observations from a re-analysis of the deposited data

How the results depend on the processing

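No paired analysis was possible because each list pools replicates 1 to 3, and for the same reason no replicate could be left out. With each peak given to its nearest histone gene, CTCF reached 13, 18 and 19 members on days 2, 4 and 6 (20, 30 and 31 otherwise) and MBD3 10, 11, 11 and 6 on the 4 days (21, 24, 21 and 13 otherwise). Without peaks whose expected background was over 10 times the list level, CTCF reached 24, 7 and 16 on days 0, 2 and 6 and MBD3 5 and 10 on days 0 and 2, and the MBD3 peaks of the stretches numbered 8 and 5 on those days in place of 15 and 12. With a -log10 q of 10 or more, CTCF reached 10 members on day 2 and MBD3 12 and 6 on days 4 and 6, with 8 and 6 MBD3 peaks on those days, and the share of MBD3 peaks in CTCF peaks was 11.1% on day 2 and 62.5% on day 4. When every day was held to the size of the shortest list, CTCF reached 17 members on day 4 and MBD3 12, 8 and 0 on days 0, 4 and 6. The MBD3 peaks then numbered 6, 3 and 0, the overlap on day 4 was 66.7%, and day 6 had no MBD3 peak in the stretches to give a share. With windows of 5 kb MBD3 reached 22 members on day 6. The cause of these shifts was not tested, and shares over all genes under these settings are not given here. H2A genes with a summit inside, with lists of equal size, numbered 11, 6, 4 and 7 for CTCF and 4, 10, 3 and 0 for MBD3, and with a -log10 q of 10 or more 12, 2, 6 and 8 for CTCF and 7, 8, 5 and 2 for MBD3. Separate summits, summits within 100 bp and an overlap of 50% moved no count computed under them by over 1.5 times and no share beyond its interval. The lists give only peaks past the authors' threshold, so a site without a peak may hold weaker signal, and depth, replicate spread and the treatment of reads that fit several copies are unknown.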
